A study of Homo sapiens with 9 samples.

Results

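MELK and 9 further protein kinases of the AMPK-related family were followed across PC3 cells in which MELK or UBE2C had been knocked down. The genes were MELK, PRKAA1, PRKAA2, MARK2, MARK3, MARK4, NUAK1, SIK2, SIK3 and BRSK1, and every probe that the platform annotation assigns to one of them was included. This gave 16 probes of the 47323 on the array, and 10 of the 20046 genes with a probe. PC3, an androgen-independent line, was established from a bone metastasis of human prostate cancer. All cells received siRNA with the same transfection reagent, and RNA was collected 48 h later. The 3 groups of 3 arrays received a MELK siRNA pool, a UBE2C siRNA pool or a negative control siRNA, each at 50 nM. UBE2C encodes the ubiquitin-conjugating enzyme of the anaphase-promoting complex. Both pools came from one supplier and the control siRNA from another, and no untransfected cells were among the groups, so in any change shared by both knockdowns against control, the loss of a target and the make of the siRNA cannot be told apart.

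AMPK is the energy sensor of the cell, a complex of a catalytic alpha subunit (PRKAA1 or PRKAA2) with beta and gamma subunits, and it shuts down lipid and protein synthesis when ATP runs low. Its relatives share a similar kinase domain, and most of them are switched on when STK11 (LKB1), a tumour suppressor kinase, phosphorylates their activation loop. MELK differs in that it does not need STK11, and its transcript is abundant in dividing cells and in many tumours. The MARK kinases release microtubule-associated proteins from microtubules, the SIK kinases keep CRTC coactivators and class IIa histone deacetylases in the cytoplasm, NUAK1 acts on the myosin phosphatase, and BRSK1 is best known for neuronal polarity.

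The array data matched an epithelial line. EPCAM, KRT8, KRT19, CDH1 and CLDN7 were above background on all 9 arrays and KRT18 on 8. The prostate markers KLK3, KLK2 and FOLH1 were above background on 0 arrays and TMPRSS2 on 9. Of 10 markers of fibroblasts, endothelium and blood, PECAM1 was above background on 9 arrays, CD14 on 8, COL1A1 on 6 and COL3A1 on 1, and the other 6 on 0. Each array had 16559 to 18661 probes above background. Precision is limited by the number of arrays.

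Of the 16 kinase probes, 13 were above background on at least 3 arrays and were tested. Both probes of MELK, NUAK1 and PRKAA1 and the single probes of MARK3, SIK3 and BRSK1 were above background on all 9 arrays. PRKAA2, the alpha subunit typical of muscle, lay at the limit, at 1.00 to 1.28 times the background intensity and above it on 5 arrays. The tested SIK2 probe (ILMN_3239795) was at 1.16 to 1.42 times background and detected on 8 arrays. MARK4 was at 1.04 to 1.19 times background and detected on 0 arrays, as were the second SIK2 probe (ILMN_1668714, 1.05 to 1.16 times) and one further MARK2 probe (ILMN_1789692, 0.873 to 1.06 times). These last probes give no level for their transcripts, and MARK4 therefore has none here.

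UBE2C siRNA replicate 1 stood apart from the other arrays. Its log2 values had correlations of 0.848 to 0.877 with those of the other arrays. These were taken across all probes above background on at least 3 arrays, with or without 1 gene listed, which are not independent replicates. Any pair of the others had a correlation of 0.981 to 0.990. The kinases with a pair of tested probes showed the same departure. On the other 8 arrays the first MELK probe read 0.78 to 1.17 log2 units above the second, and on UBE2C siRNA replicate 1 it read 2.58 above it. For NUAK1 the difference was 0.84 to 1.21 on the other arrays and 0.28 on that one, and for MARK2 it was 1.00 to 2.92 on the others and 0.04 on that one. PRKAA1 differed least, with 1.73 to 2.33 on the others and 2.34 on that array. On 1 of its probes (ILMN_2301083) UBE2C was as low on that array (log2 signal 11.54) as on the other arrays of its group (11.52 and 11.66), against 12.85 to 12.96 with control siRNA. A second UBE2C probe (ILMN_2265654) had log2 fold changes against control of -0.20 with 9 arrays and -0.13 with 8, neither past the threshold. The results below therefore come from a fit of all 9 arrays and from an 8-array fit without that array, which lets the prior spread follow signal level and was chosen after earlier results were known.

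**Figure D1:**
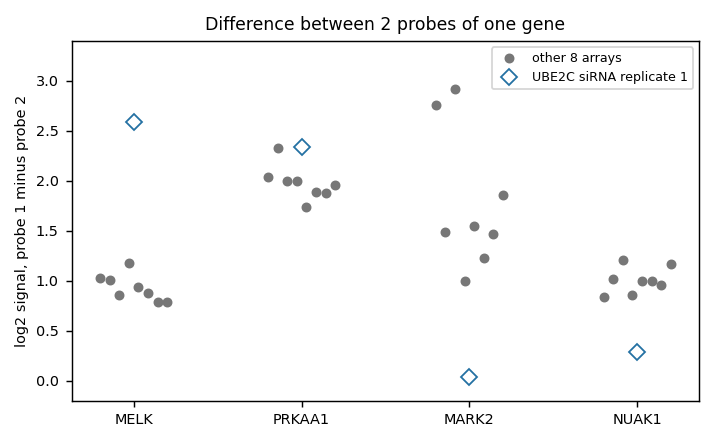
Difference in normalized log2 signal between the first and second tested probe (the first has the higher mean signal) of the 4 kinase genes with a pair of tested probes; each grey point is 1 of 8 arrays and the open diamond is UBE2C siRNA replicate 1. The diamond lies outside the other arrays clearly for MELK (2.58), MARK2 (0.04) and NUAK1 (0.28), and just above them for PRKAA1 (2.34).

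MELK, the targeted kinase, had a lower signal with MELK siRNA on both of its probes, at 47.2% and 46.2% of the control signal. For the first probe (ILMN_2212909) the normalized log2 signals were 10.51, 10.37 and 10.49 with control siRNA, 9.44, 9.36 and 9.32 with MELK siRNA, and 10.94, 10.30 and 10.24 with UBE2C siRNA. All 3 MELK siRNA arrays lay below all others. UBE2C siRNA replicate 1 lay above all controls, and the other UBE2C siRNA arrays lay narrowly below them. The second probe (ILMN_1731184) read 9.48, 9.36 and 9.64 with control siRNA, 8.27, 8.43 and 8.45 with MELK siRNA, and 8.35, 9.52 and 9.45 with UBE2C siRNA. Here the MELK siRNA arrays again lay below all controls, and the 1 array of the other groups that reached their range was UBE2C siRNA replicate 1.

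Against control siRNA, the log2 fold change of MELK was -1.08 (SE 0.20) on the first probe and -1.11 (SE 0.30) on the second in the 9-array fit. Neither passed the threshold there (adjusted p = 1 for each in limma). An exact permutation test with both tails counted gave p = 0.1 on either probe, the smallest that 3 against 3 arrays allow. In the 8-array fit, where the fold changes are the same and the errors are smaller (SE 0.09 and 0.11), MELK fell on both probes (adjusted p = 1.88e-05 and 0.000109). These calls held in the 8-array fit whichever further array was left out, with median scaling and with the authors' values. They depend in part on the trended, robust prior of that fit: with 8 arrays and the ordinary prior the adjusted p was 0.0382 for the first probe and 0.0529 for the second. RNA came from whole cultures, so fewer cells with the transcript and less transcript per cell cannot be told apart.

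With UBE2C siRNA, MELK differed from control by 0.03 (SE 0.20) on the first probe and -0.39 (SE 0.30) on the second in the 9-array fit. The values were -0.19 (SE 0.10, 95% interval -0.40 to 0.03) and -0.01 (SE 0.12, 95% interval -0.27 to 0.25) without UBE2C siRNA replicate 1, so the 9-array values depend on that array, and no value passed the threshold in either fit. Neither of these intervals reaches the change of -1.08 seen with MELK siRNA.

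**Figure D2:**
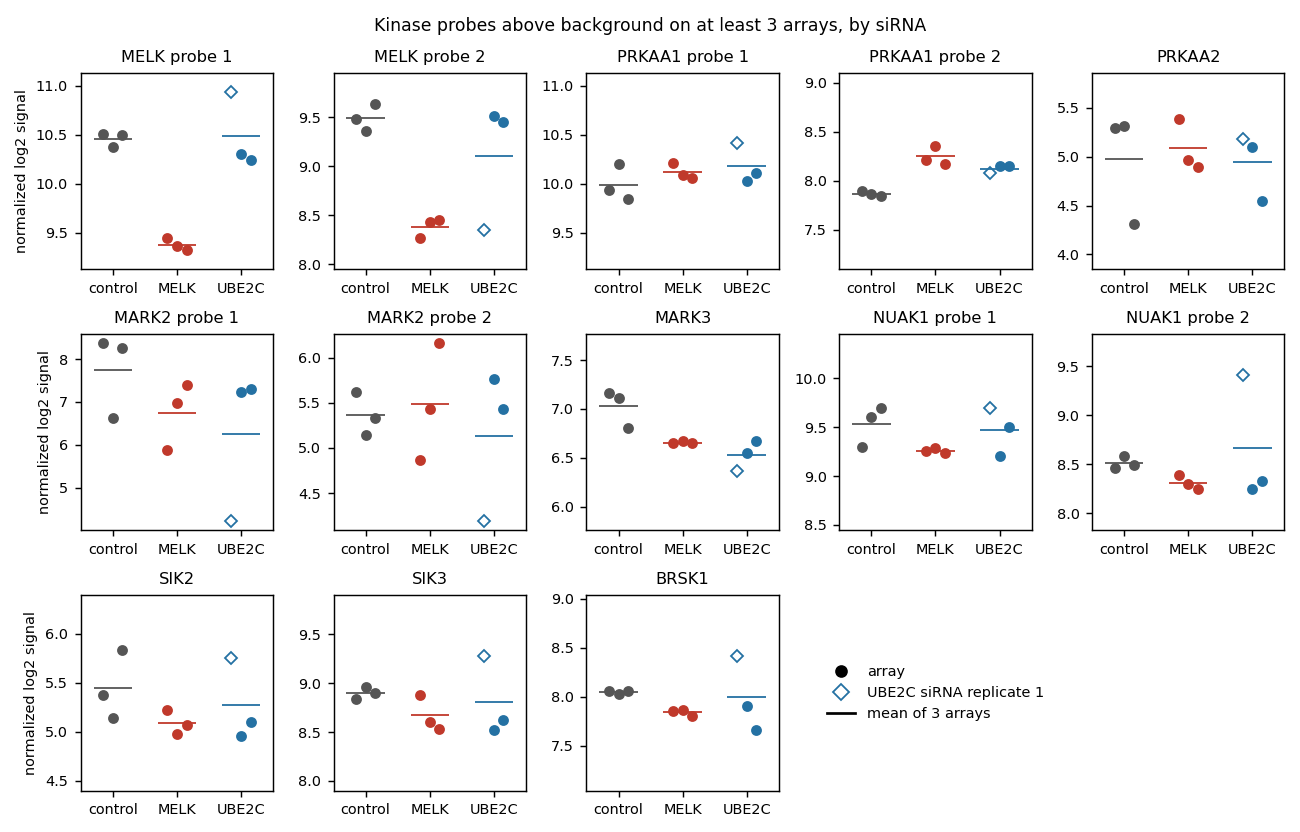
Normalized log2 signal of the 13 tested kinase probes on each of the 9 arrays, by siRNA; each point is 1 array, the open diamond is UBE2C siRNA replicate 1, horizontal lines are means of 3 arrays and each vertical axis spans at least 2 log2 units. Both MELK probes are low with MELK siRNA (9.32 to 9.44 and 8.27 to 8.45), while in most other panels the groups lie close together or overlap.

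The catalytic alpha-1 subunit of AMPK, PRKAA1, had values above control with both knockdowns on its second probe. That probe (ILMN_1783889) read 7.90, 7.87 and 7.84 with control siRNA, 8.21, 8.36 and 8.17 with MELK siRNA, and 8.08, 8.15 and 8.15 with UBE2C siRNA. The 3 groups did not overlap, with MELK siRNA highest and control lowest. The lowest MELK siRNA array (8.17) lay only narrowly above the highest UBE2C siRNA array (8.15). The log2 fold change with MELK siRNA was 0.38 (SE 0.13, adjusted p = 1) in the 9-array fit and 0.38 (SE 0.12, adjusted p = 0.0771) in the 8-array fit, so it did not pass the threshold in either. With UBE2C siRNA it was 0.26 (SE 0.13) and 0.28 (SE 0.13), and the knockdowns differed from each other by 0.10 (SE 0.13) in the 8-array fit, both short of the threshold.

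The first PRKAA1 probe (ILMN_2357577), which the annotation assigns to another transcript of the gene, gave smaller values. Its log2 signal was 9.94, 10.20 and 9.84 with control siRNA, 10.22, 10.09 and 10.06 with MELK siRNA, and 10.42, 10.03 and 10.11 with UBE2C siRNA. The groups overlapped, and the log2 fold change with MELK siRNA was 0.13 (SE 0.10, 95% interval -0.09 to 0.35) in the 8-array fit. For PRKAA2 the means were 4.98 ± 0.57, 5.08 ± 0.27 and 4.94 ± 0.35 (log2 signal, SD, n = 3) with control, MELK and UBE2C siRNA. These means differ by less than the spread within the groups, and at this signal a difference was not detectable.

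Among the microtubule-affinity regulating kinases, MARK3 was lower in both knockdowns without passing the test. Its log2 signal was 7.16, 7.11 and 6.81 with control siRNA, 6.65, 6.67 and 6.65 with MELK siRNA, and 6.37, 6.55 and 6.68 with UBE2C siRNA. All 6 knockdown arrays lay below all 3 controls, and the knockdown groups overlapped each other. The log2 fold change was -0.37 (SE 0.16, adjusted p = 0.199) with MELK siRNA and -0.41 (SE 0.18, adjusted p = 0.197) with UBE2C siRNA in the 8-array fit. In the 9-array fit it was -0.37 (SE 0.16, adjusted p = 1) and -0.50 (SE 0.16, adjusted p = 0.444).

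MARK2 varied more between arrays of one group than any other kinase. The first MARK2 probe (ILMN_2413572) read 8.37, 6.63 and 8.25 with control siRNA, 5.87, 6.98 and 7.39 with MELK siRNA, and 4.23, 7.23 and 7.29 with UBE2C siRNA. The control group alone spanned more than the difference between any of the groups, and UBE2C siRNA replicate 1 was not above background. The log2 fold change with MELK siRNA was -1.002 (SE 0.60, 95% interval -2.47 to 0.47) in the 8-array fit. A second probe of the gene (ILMN_1736747), detected on 7 arrays, gave 0.13 (SE 0.29), so the probes disagreed in sign.

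NUAK1, the kinase that acts on the myosin phosphatase, had a log2 signal of 9.30, 9.60 and 9.70 with control siRNA, 9.25, 9.29 and 9.24 with MELK siRNA, and 9.70, 9.20 and 9.50 with UBE2C siRNA on its first probe (ILMN_1689318). The MELK siRNA arrays lay below all controls, though narrowly, and the UBE2C siRNA arrays overlapped the controls. Its second probe (ILMN_2079786) ran from 8.46 to 8.58 with control siRNA and from 8.24 to 8.39 with MELK siRNA, again without overlap. The log2 fold changes with MELK siRNA were -0.27 (SE 0.12, adjusted p = 0.199) and -0.20 (SE 0.11, adjusted p = 0.343) in the 8-array fit. With UBE2C siRNA the second probe read 9.41 on replicate 1 and 8.25 and 8.33 on the others, so its fold change was 0.15 (SE 0.29) with that array and -0.22 (SE 0.13) without it.

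BRSK1 had a log2 signal of 8.06, 8.03 and 8.06 with control siRNA, 7.86, 7.86 and 7.81 with MELK siRNA, and 8.42, 7.91 and 7.66 with UBE2C siRNA. The MELK siRNA arrays lay below all controls. UBE2C siRNA replicate 1 lay above all controls and the other UBE2C siRNA arrays lay below them. The log2 fold change with MELK siRNA was -0.21 in both fits (SE 0.20 with 9 arrays, SE 0.12 and adjusted p = 0.363 with 8). With UBE2C siRNA it was -0.06 (SE 0.20) with 9 arrays and -0.27 (SE 0.14, adjusted p = 0.285) with 8. The tight spread of the controls (SD 0.02, n = 3) is narrower than the error the fit assigns from all arrays.

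The salt-inducible kinases gave no call. SIK3 read 8.83, 8.96 and 8.89 with control siRNA, 8.88, 8.60 and 8.53 with MELK siRNA, and 9.28, 8.52 and 8.62 with UBE2C siRNA. Replicate 1 lay above all controls and the other UBE2C siRNA arrays below them. The log2 fold change was -0.23 (SE 0.12) with MELK siRNA and -0.33 (SE 0.13, adjusted p = 0.165) with UBE2C siRNA in the 8-array fit, and the latter was -0.09 (SE 0.22) with 9 arrays. The tested SIK2 probe had mean log2 signals of 5.45 ± 0.35, 5.09 ± 0.13 and 5.27 ± 0.42 (SD, n = 3) with control, MELK and UBE2C siRNA, and the arrays of the groups overlapped. Without UBE2C siRNA replicate 1 (5.75), the UBE2C siRNA arrays (4.96 and 5.10) lay below all controls. In the 8-array fit the SIK2 log2 fold change was -0.36 (SE 0.25, adjusted p = 0.452) with MELK siRNA. With UBE2C siRNA it was -0.42 (SE 0.28, adjusted p = 0.425).

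Across the family, the calls were those of MELK. A probe is called where its adjusted p is at most 0.05. In the 9-array fit, limma called 0 of the 13 kinase probes for MELK siRNA against control, where it called 0% of all probes. At an unadjusted p under 0.05 there were 4 kinase probes, against 4.72% of all probes. In the 8-array fit 2 of 13 were called, both of MELK and both lower, where 4.13% of all probes were called and 2.27% were lower. At an unadjusted p under 0.05 that fit had 5 kinase probes (both of MELK, the second of PRKAA1, MARK3 and the first of NUAK1), against 20.7% of all probes. The MELK siRNA and control arrays did not overlap for 7 of the 13 probes, 6 lower and 1 higher, where 24.7% of all probes did not overlap, 11.1% lower and 13.6% higher. Those lower were both MELK and both NUAK1 probes, MARK3 and BRSK1, and the one higher was the second PRKAA1 probe. Probes of one gene report on the same gene, so they do not count as separate observations.

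For UBE2C siRNA against control, 0 of the 13 probes were called by limma in either fit, where 0% of all probes were called with 9 arrays and 3.25% with 8. At an unadjusted p under 0.05 there was 1 kinase probe with 9 arrays (MARK3) and 2 with 8 (MARK3 and SIK3), where 10.5% and 21.0% of all probes passed. The groups did not overlap for 2 of 13 probes with 9 arrays (MARK3 and the second PRKAA1 probe), where 18.7% of all probes did not, and for 7 of 13 with 8 arrays, where 37.7% did not. Both knockdowns were set against the same 3 controls, so values that run alike in both comparisons are not independent of each other.

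**Figure D3:**
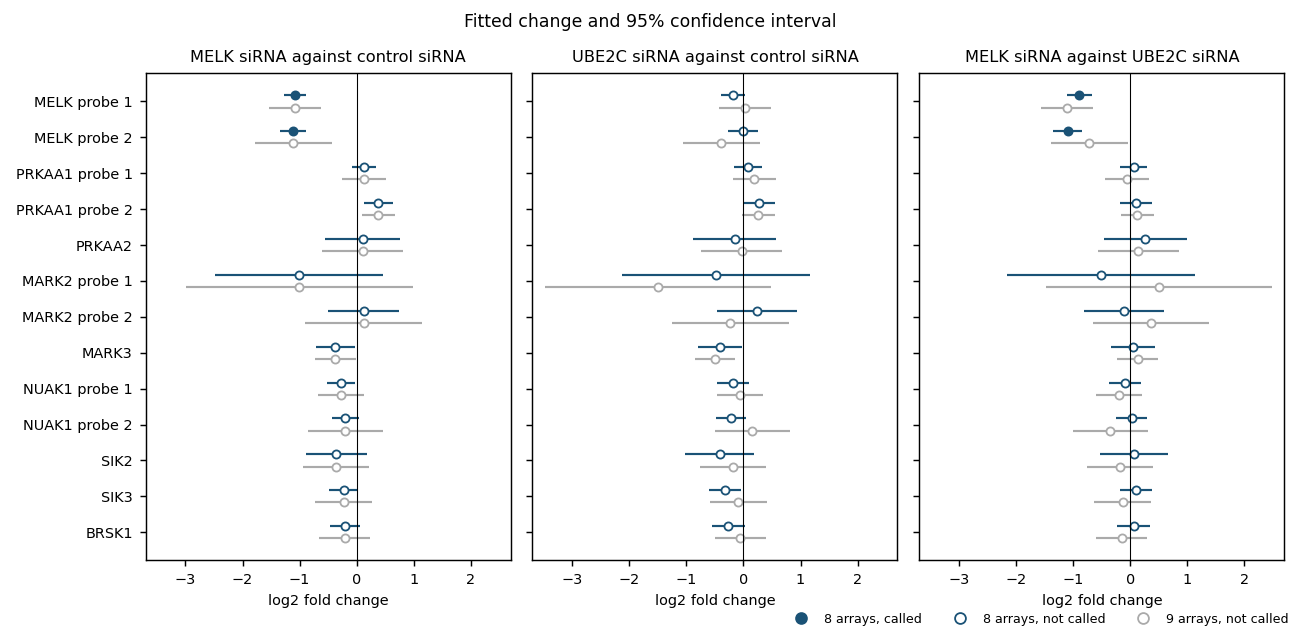
Fitted log2 fold change with its 95% confidence interval for the 13 tested kinase probes in each comparison; grey is the 9-array fit, blue the 8-array fit without UBE2C siRNA replicate 1, and filled points passed an adjusted p of 0.05. The filled points are the MELK probes, at -1.08 and -1.11 against control and -0.90 and -1.10 against UBE2C siRNA.

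In the comparison of the knockdowns with each other, the log2 differences do not use the control group mean. Their errors and p-values do use the spread within the control group, because all groups were fitted together. In the 8-array fit 3 of the 15066 tested probes were called, which is 0.0199%, and these were both MELK probes and 1 of UBE2C. The MELK probes were the 2 called lower, 0.0133% of all probes. MELK was lower with MELK siRNA than with UBE2C siRNA by -0.90 (SE 0.10, adjusted p = 0.000517) on its first probe and by -1.10 (SE 0.12, adjusted p = 0.000517) on its second. UBE2C was higher with MELK siRNA by 1.25 (SE 0.08, adjusted p = 1.62e-07) on probe ILMN_2301083, and its probe ILMN_2265654 gave 0.05. The other 11 kinase probes had log2 differences from -0.51 for the first MARK2 probe to 0.26 for PRKAA2, none of them called. With 9 arrays limma called 0% of all probes and 0 kinase probes, and 2 kinase probes (both of MELK, -1.12 and -0.73) had an unadjusted p under 0.05, where 2.73% of all probes did. With 8 arrays these were again 2, where 5.09% of all probes were. The groups did not overlap for 2 of 13 kinase probes with 9 arrays and 3 of 13 with 8, against 8.83% and 23.6% of all probes. The MELK calls were lost with 8 arrays and the ordinary prior (adjusted p = 0.124 for each) and without UBE2C siRNA replicate 2 as well (-0.87 and -1.07, adjusted p = 0.0712 for each), and that of the first probe with median scaling (-0.80, adjusted p = 0.0598).

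**Figure D4:**
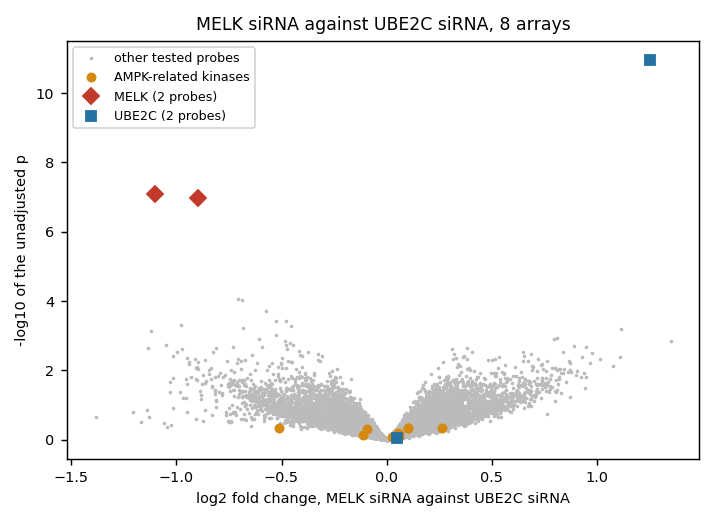
Fitted log2 fold change between MELK siRNA and UBE2C siRNA against -log10 of the unadjusted p for the 15066 tested probes in the 8-array fit; red diamonds are MELK, blue squares UBE2C, orange points the other kinase probes and grey points all others. The MELK probes at -0.90 and -1.10 and the UBE2C probe at 1.25 stand above the rest, and a second UBE2C probe lies near 0.

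The genes that work with these kinases gave no call in the 9-array fit, where 0% of all probes were called against control. Their calls in the 8-array fit are to be read against the 4.13% of all probes called with MELK siRNA and the 3.25% called with UBE2C siRNA. They are described by the brightest tested probe of each gene, beside a median log2 fold change over 11428 genes of 0.00 with MELK siRNA and -0.02 with UBE2C siRNA. Of the other AMPK-related kinases, MARK1 and HUNK were not tested, and of the 5 that were (SNRK, SIK1, NIM1K, BRSK2 and NUAK2) none was called. Their median was 0.17 with MELK siRNA and 0.19 with UBE2C siRNA, and the latter was 0.47 with 9 arrays. NIM1K, BRSK2 and NUAK2 had mean log2 signals of 5.30, 5.21 and 5.01, close to those of PRKAA2 and SIK2 near background. With UBE2C siRNA the NUAK2 probes gave 0.45 and -0.41. With MELK siRNA SNRK was at -0.05 and SIK1 at 0.19, and the other probe of each had the opposite sign (0.16 and -0.16). Among 4 tested AMPK beta and gamma subunits the regulatory gamma-1 subunit PRKAG1 rose with MELK siRNA (0.41, SE 0.10, adjusted p = 0.0345), although this call was lost with median scaling (adjusted p = 0.0676) and on leaving out any 1 of the 8 arrays (adjusted p up to 0.141). With UBE2C siRNA PRKAG1 was also positive without being called (0.28, SE 0.11, adjusted p = 0.166), and it was at 0.21 with 9 arrays. The muscle subunit PRKAG3 was below background. Of 7 upstream kinases and scaffolds none was called in either knockdown, with the scaffold CAB39 at -0.04 and the STK11 partner STRADA at -0.19 with MELK siRNA.

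Of 17 tested substrates of AMPK and the SIK kinases, 3 had a positive log2 fold change with MELK siRNA and the median was -0.24. With UBE2C siRNA 3 were positive and the median was -0.35. No brightest probe was called with MELK siRNA, where 4.13% of all probes were, and 2 were with UBE2C siRNA, where 3.25% of all probes were. With UBE2C siRNA TSC2, the inhibitor of mTORC1 signalling, fell by 0.77 (SE 0.17, adjusted p = 0.0265) and the transcription factor FOXO3 fell by 0.49 (SE 0.12, adjusted p = 0.0396). The other FOXO3 probe gave -0.14 (SE 0.20, adjusted p = 0.753). Further probes added calls for 2 genes. The autophagy kinase ULK1 fell by 0.45 (SE 0.10, adjusted p = 0.0225) with MELK siRNA and by 0.52 (SE 0.11, adjusted p = 0.0265) with UBE2C siRNA on its second probe, where the first gave -0.37 and -0.39. MFF, the mitochondrial fission factor, rose by 0.80 (SE 0.16, adjusted p = 0.013) with MELK siRNA on its second probe, where the first gave 0.31. With UBE2C siRNA the second MFF probe was also positive without being called (0.46, SE 0.18, adjusted p = 0.152), and the first gave 0.20. The knockdowns differed from each other by 0.34 (SE 0.18) on the second MFF probe, which was not called. The calls of TSC2, FOXO3 and ULK1 were lost with median scaling (adjusted p = 0.159, 0.194, and 0.235 and 0.200), and that of MFF held (adjusted p = 0.0265). Leaving out 1 further array ended the TSC2 call for control replicates 1 and 2 and UBE2C siRNA replicates 2 and 3 (adjusted p up to 0.296). It ended the FOXO3 call for 6 of 8 arrays, all but MELK siRNA replicates 1 and 3 (up to 0.330), and the MFF call for MELK siRNA replicate 2 (0.0663). The ULK1 calls ended without control replicate 2 or either of replicates 2 and 3 of the siRNA compared (up to 0.131 and 0.296). With UBE2C siRNA replicate 1 included, the values for UBE2C siRNA were -0.70 for TSC2, -0.26 for FOXO3 and -0.32 for the second ULK1 probe. For MFF they were 0.86 on the second probe and -0.24 on the first.

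Of 10 tested substrates of the MARK and NUAK kinases none was called, with the phosphatase subunit PPP1CB at 0.08 and CDC25C, the phosphatase that starts mitosis, at 0.24 with MELK siRNA. The other PPP1CB probe gave 0.40, and the other probes of CDC25C gave 0.17 and 0.01. Of the 14-3-3 proteins, which bind phosphorylated substrates of these kinases, YWHAE rose with MELK siRNA (0.38, SE 0.10, adjusted p = 0.0434) and with UBE2C siRNA (0.45, SE 0.11, adjusted p = 0.0408), and 5 of 7 were positive in each. A second YWHAE probe gave -0.43 and 0.27, and with all 9 arrays YWHAE was at -0.41 with UBE2C siRNA. The second YWHAG probe rose with UBE2C siRNA (0.63, SE 0.15, adjusted p = 0.0323), where the first gave 0.28 and the second was at -0.46 with all 9 arrays. With median scaling none of these was called (adjusted p = 0.0501, 0.168 and 0.156). Leaving out 1 further array ended the YWHAE call with MELK siRNA for 7 of 8 arrays, all but MELK siRNA replicate 1 (adjusted p up to 0.181), and that with UBE2C siRNA for 5 arrays, all but control replicate 3 and MELK siRNA replicates 1 and 3 (up to 0.337). The YWHAG call ended without control replicate 2, MELK siRNA replicate 2 or UBE2C siRNA replicate 2 or 3 (up to 0.252).

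Of 6 tested partners and substrates reported for MELK none was called. The phosphatase CDC25B was at -0.03 with MELK siRNA and -0.16 with UBE2C siRNA, and the zinc finger protein ZNF622 at 0.06 and 0.09. The median of the 6 was 0.02 with MELK siRNA, with a range from -0.16 to 0.06. With UBE2C siRNA their median was -0.16, with a wider range from -0.88 to 0.09. Of 16 cell-cycle genes whose transcripts, like that of MELK, are high in dividing cells, 8 were positive with MELK siRNA and the median was -0.01, with a range from -0.27 to 0.47. The mitotic kinase PBK rose in both knockdowns (0.47, SE 0.10, adjusted p = 0.0199 with MELK siRNA and 0.54, SE 0.12, adjusted p = 0.0254 with UBE2C siRNA), and 0 fell. The call of PBK with MELK siRNA was lost without control replicate 1 or 2 or MELK siRNA replicate 2 or 3 (adjusted p up to 0.101), and that with UBE2C siRNA without control replicate 1 or 2 or UBE2C siRNA replicate 2 or 3 (up to 0.270) and with median scaling (0.134).

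**Figure D5:**
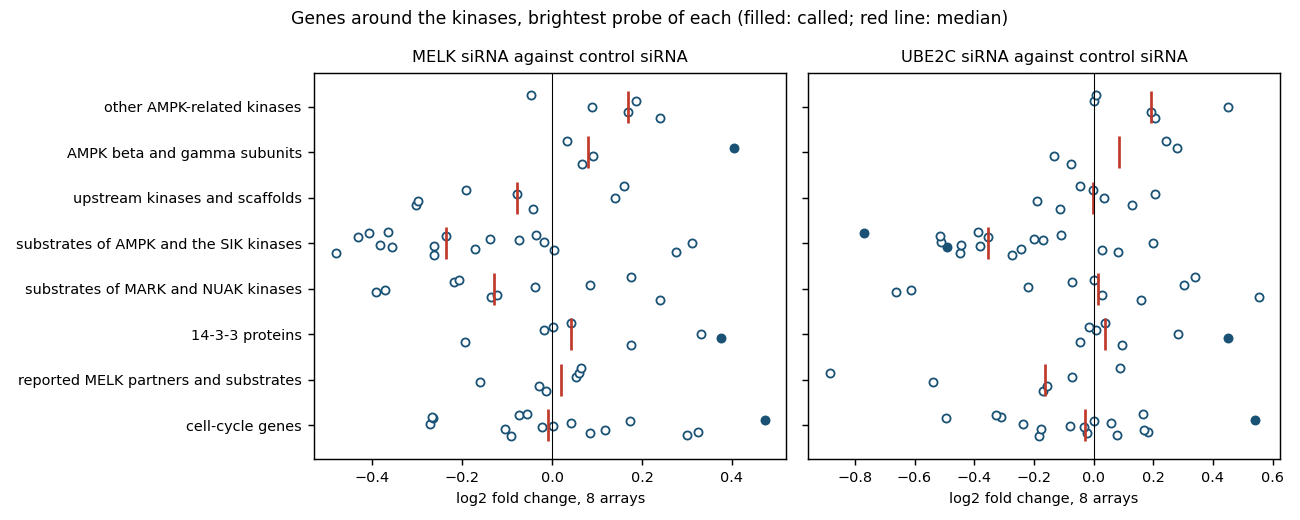
Log2 fold change of each tested gene (brightest probe) in 8 lists of genes around the kinases, for MELK siRNA and UBE2C siRNA against control in the 8-array fit; filled points passed an adjusted p of 0.05 and red lines are list medians. Substrates of AMPK and the SIK kinases have medians of -0.24 and -0.35, while cell-cycle genes lie around 0 (-0.01 and -0.03).

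The transcripts whose signal ran most like the first MELK probe over the 8 arrays were OBI1 (Pearson r = 0.954), NOX5 (0.949), MANCR (0.945), ARID1A (0.941) and GRINA (0.938). These are descriptions over 8 arrays that share 3 siRNA groups, chosen as the highest among all tested genes. ARID1A, a subunit of the SWI/SNF chromatin remodelling complex, had a log2 signal of 9.89 to 10.09 with control siRNA, 9.47 to 9.60 with MELK siRNA and 9.79 and 9.78 on UBE2C siRNA replicates 2 and 3, with replicate 1 at 9.45. The log2 fold changes of the 5 with MELK siRNA ran from -0.45 for ARID1A to -0.15 for OBI1 in the 8-array fit, and since the genes were chosen for running like MELK on these arrays, lower values with MELK siRNA follow from the choice. On all 9 arrays r was 0.958 for MANCR and 0.476 for ARID1A, and from -0.319 to -0.225 for the other three. Among the kinases themselves r with MELK over the 8 arrays ran from -0.484 for PRKAA1 to 0.571 for NUAK1.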

How the data were processed

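PC3 RNA from 9 samples was hybridized to Illumina bead arrays, per the labels' protocols. The deposited intensities are linear bead signals with a detection p-value for each probe, per the file headers, and their ranges show neither scaling nor subtraction of background. The authors also deposited log2 values (median 6.78), whose quantiles are the same on all arrays and which, set against the intensities, keep the background. Per the submitters' processing notes lumi was used; its version and parameters are not given in the sources used here.

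Intensities were corrected and normalized as in neqc of limma 3.58.1 (R 4.3.3), with an offset of 16, quantile normalization and log2. The detection p was small on both sides of the background (97.6 to 102 intensity units, the median of the 50 probes with the highest p on an array). A probe therefore counted as detected only with p under 0.01 and a signal above background. Probes detected on at least 3 arrays and with 1 gene in the platform annotation were tested, 15066 probes of 11428 genes. Of 47323 probes 30113 had 1 gene, 8 had several and 17202 had none listed. By gene number, 30074 matched a RefSeq table of GRCh38.p14, with 0 symbols changed.

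Group means were fitted at probe level with lmFit and eBayes, with Benjamini-Hochberg adjustment over all tested probes and a threshold of 0.05. The main fit holds all 9 arrays. The fit of 8 arrays drops UBE2C siRNA replicate 1 after normalization and uses a trended, robust prior. Gene-list medians use each gene's probe with the highest mean. Alternatives covered the prior, array weights, scaling, filter, probe rule, samples in the fit, a replicate block and each array left out. Genes named are the 10 kinases, UBE2C, list members with a called probe (otherwise the 2 with the highest mean signal), and the 5 genes most like MELK. The kinases, lists and the 8-array fit were chosen with earlier results of these data known. No pair of arrays within a group had more than 14 identical signals. Nothing in the labels ties the replicates to separate cultures; p-values then reflect the spread among these samples alone, possibly technical. No slide or scan date was used.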

Additional observations from a re-analysis of the deposited data

How the results depend on the processing

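The 8-array fit differs from the 9-array fit in leaving out UBE2C siRNA replicate 1 and in its trended, robust prior. The number of called kinase probes depended on these choices in a way that differed between the comparisons. For MELK siRNA against control it was 0 with 9 arrays under either prior, 1 with 8 arrays and the ordinary prior, and 2 in the 8-array fit, with array weights, with that array left out before normalization, and in the 8-array fit with median scaling or the authors' values. With each array left out it ran from 0 to 2. The log2 fold change of MELK was -1.08 with 8 arrays, -1.09 with array weights, -1.06 with that array left out before normalization, -0.93 with median scaling and -0.997 with the authors' values, all called, and -1.13 to -1.06 with each array left out. For MELK siRNA against UBE2C siRNA the count was 0 with 9 arrays under either prior and 0 with 8 arrays and the ordinary prior. It was 2 under the other settings named, except 1 with median scaling, and 0 to 2 with each array left out. For UBE2C siRNA against control it was 0 under all 31 alternatives. The median log2 change of all probes under median scaling was 0.08, 0.02 and 0.08 in the 3 comparisons.

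Counts over all probes in the 8-array fit for MELK siRNA against control were 622, with 51 (without MELK siRNA replicate 2) to 712 on leaving out a further array, 193 with median scaling and 19 with array weights on 9 arrays. For UBE2C siRNA against control they were 489, with 2 (without UBE2C siRNA replicate 2 or 3) to 745, 8 with median scaling and 241 with array weights. For MELK siRNA against UBE2C siRNA they were 3, with 1 to 4, and 8 with array weights.

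Several uncalled log2 fold changes turned sign. For MELK siRNA against control PRKAA2 was -0.0036 with array weights and -0.22 to 0.28 with each array left out. For UBE2C siRNA against control MELK was -0.19 with 8 arrays, -0.17 with array weights and -0.19 to 0.16 with each array left out, and its second probe 0.0081 with array weights. There PRKAA2 was 0.0011 with the authors' values and -0.36 to 0.17 with each array left out, NUAK1 0.018 with median scaling and -0.18 to 0.065, SIK2 -0.42 to 0.012, SIK3 -0.33 to 0.052 and BRSK1 -0.27 to 0.11. For MELK siRNA against UBE2C siRNA the values with 8 arrays, with array weights and with each array left out were 0.055, 0.056 and -0.14 to 0.055 for PRKAA1, -0.51, -0.37 and -0.51 to 1.02 for MARK2, 0.059, 0.039 and -0.34 to 0.059 for SIK2, 0.10, 0.086 and -0.28 to 0.10 for SIK3, and 0.059, 0.0062 and -0.32 to 0.059 for BRSK1. PRKAA2 was -0.058 to 0.26 there with each array left out. The cause was not tested.

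The replicate numbers were not shown to pair the arrays: deviations from the group means correlated at -0.181 to 0.312 for equal numbers and -0.298 to 0.280 for others. With the replicate block 0 probes were called in each comparison and MELK stayed at -1.08 with MELK siRNA. PRKAA2, SIK2 and the second MARK2 probe lie near background, so no small change in them could be detected.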
